A study of Saccharomyces cerevisiae with 6 samples.

Results

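Small nucleolar RNAs (snoRNAs) of the budding yeast Saccharomyces cerevisiae were examined in a strain with the actin substitution R256C (arginine replaced by cysteine) and in a wild-type strain (WT). The 76 rows described here are all rows of the deposited count table whose name begins with snR, out of 7126 gene rows, leaving out the 5 spliceosomal RNA rows that share that prefix. By the annotation of the R64 reference, to which all 76 rows were matched, 45 encode box C/D snoRNAs and 29 encode box H/ACA snoRNAs. The 2 U3 rows, for which it gives no box, are counted here as box C/D from general knowledge, which makes 47. By a list of gene organisation, 51 are single genes, 17 lie in 5 polycistronic clusters and 8 lie in introns of protein-coding genes. Both strains are labelled as S288C, and their only labelled difference is the genotype, R256C or WT. Each was grown without treatment in YPD, a rich medium, at 30 °C and harvested at an optical density of 0.9, early in the exponential phase. The 3 libraries per strain are labelled biological replicates, while growth rates and the number of independent isolates were not given in the sources used here. The substitution cannot be told apart from any other difference between these strains. Libraries were made from poly(A)-selected RNA with a stranded mRNA kit, per the labels' protocols.

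SnoRNAs are short RNAs of the nucleolus that pair with ribosomal RNA (rRNA) and direct proteins to it. Box C/D snoRNAs form particles with the methyltransferase Nop1 and guide ribose methylation, whereas box H/ACA snoRNAs form particles with Cbf5 and guide pseudouridylation. A few of them, among them U3, U14, snR10 and snR30, take part in the cleavage of pre-rRNA instead of, or besides, its modification. In yeast most are made by RNA polymerase II, are released from longer precursors by the endonuclease Rnt1 or by debranching of an intron, and are trimmed by exonucleases. Mature snoRNAs carry no stable poly(A) tail, while precursors and RNAs on their way to decay can carry a short one. A level given here is therefore that of the RNA caught by an oligo(dT) library, not of all mature snoRNA in the cell. In RNA of a whole culture, less RNA per cell and fewer cells that make it cannot be told apart.

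The 2 U3 genes are shown first because their rows had the highest levels and held 46.5% of the difference in summed snoRNA level. U3, a box C/D snoRNA with no known modification target, pairs with the leader and the small subunit part of pre-rRNA and holds the processome that cleaves it. Its genes, snR17a (chromosome XV, 780107 to 780596, plus strand) and snR17b (chromosome XVI, 281056 to 281517, minus strand), are 490 and 462 bp long in the R64 RefSeq reference and share 403 aligned identical bases. Each is interrupted by an intron, of 157 bp in snR17a and 130 bp in snR17b, which begins at base 15 with GTATGT. Outside the intron 27 of 333 bases of snR17a and 26 of 332 bases of snR17b were not identical in the alignment. In the intron these numbers were 60 and 33. The longest run shared by both is 77 bases, so reads in such stretches cannot be given to one copy. The last 300 bases of each gene are shown, which lie downstream of the intron and hold all of the differing bases outside it, and capitals mark the bases of each copy that are not identical in the other.
snR17a: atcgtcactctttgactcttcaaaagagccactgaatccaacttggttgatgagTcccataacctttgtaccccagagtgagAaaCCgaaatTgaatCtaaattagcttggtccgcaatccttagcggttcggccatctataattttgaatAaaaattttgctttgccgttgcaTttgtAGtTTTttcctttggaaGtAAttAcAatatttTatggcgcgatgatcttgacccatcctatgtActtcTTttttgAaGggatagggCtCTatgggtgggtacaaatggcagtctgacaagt
snR17b: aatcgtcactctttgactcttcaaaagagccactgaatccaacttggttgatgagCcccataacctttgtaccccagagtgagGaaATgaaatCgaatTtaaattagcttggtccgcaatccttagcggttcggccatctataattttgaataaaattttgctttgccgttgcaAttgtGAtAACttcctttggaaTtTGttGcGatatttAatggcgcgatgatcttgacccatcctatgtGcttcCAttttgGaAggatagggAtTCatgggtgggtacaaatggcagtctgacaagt

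The box C/D members other than U3 among the 6 largest called rises and the 6 largest called falls are shown to give their target sites. In the box C/D members below, capitals mark a TGATGA in the first 25 bases (the core of box C), the last CTGA (box D) and each run of at least 9 bases that is complementary to rRNA around an annotated methylation site. The first 25 bases of snR24 hold no TGATGA, and its first run is for positions 1449 and 1450 of the large subunit rRNA, where the reference base is not the annotated one. Of these members snR48, snR67, snR75, snR52 and snR47 rose in R256C, and snR39, snR63, snR65 and snR24 fell. All are from the R64 RefSeq reference, written 5′ to 3′ on the strand of the gene: snR48 (chromosome VII, 609584 to 609696, plus strand), snR67 (chromosome V, 61352 to 61433, plus strand), snR75 (chromosome XIII, 297918 to 298006, plus strand), snR52 (chromosome V, 431129 to 431220, minus strand), snR47 (chromosome IV, 541602 to 541700, minus strand), snR39 (chromosome VII, 365163 to 365251, minus strand), snR63 (chromosome IV, 323217 to 323471, minus strand), snR65 (chromosome III, 177183 to 177282, plus strand) and snR24 (chromosome XIII, 499984 to 500072, minus strand).
snR48: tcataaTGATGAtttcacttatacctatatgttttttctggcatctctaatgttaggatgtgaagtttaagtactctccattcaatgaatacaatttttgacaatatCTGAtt
snR67: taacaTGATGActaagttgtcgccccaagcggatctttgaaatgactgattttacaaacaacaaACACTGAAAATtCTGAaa
snR75: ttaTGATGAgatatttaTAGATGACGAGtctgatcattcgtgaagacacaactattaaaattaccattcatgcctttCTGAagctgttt
snR52: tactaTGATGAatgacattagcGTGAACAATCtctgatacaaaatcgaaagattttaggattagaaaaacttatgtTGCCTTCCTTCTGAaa
snR47: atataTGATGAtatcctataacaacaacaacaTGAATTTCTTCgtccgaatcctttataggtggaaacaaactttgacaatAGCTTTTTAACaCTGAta
snR39: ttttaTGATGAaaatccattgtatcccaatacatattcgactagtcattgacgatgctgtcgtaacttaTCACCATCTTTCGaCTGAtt
snR63: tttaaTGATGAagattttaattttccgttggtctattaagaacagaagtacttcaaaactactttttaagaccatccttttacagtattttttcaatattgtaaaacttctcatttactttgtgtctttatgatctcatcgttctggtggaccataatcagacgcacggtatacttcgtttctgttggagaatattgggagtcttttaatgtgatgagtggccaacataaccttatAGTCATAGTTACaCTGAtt
snR65: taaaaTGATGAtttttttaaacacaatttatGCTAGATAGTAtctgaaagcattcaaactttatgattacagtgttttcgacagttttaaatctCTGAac
snR24: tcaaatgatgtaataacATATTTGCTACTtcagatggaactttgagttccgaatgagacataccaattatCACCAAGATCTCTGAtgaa

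The box H/ACA member with the largest fall was snR189 (chromosome III, 178610 to 178798, minus strand), whose closing ACA box is in capitals.
snR189: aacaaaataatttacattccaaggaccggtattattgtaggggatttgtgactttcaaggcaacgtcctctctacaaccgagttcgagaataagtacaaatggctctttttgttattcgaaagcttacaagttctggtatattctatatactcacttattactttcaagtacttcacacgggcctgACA

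Across all 76 rows, these short motifs were counted in the box C/D and box H/ACA classes, searched on the gene's strand. CTGA lay in the last 25 bases of 45 of 47 box C/D rows (95.7%) and of 2 of 29 box H/ACA rows (6.90%). The exceptions among the box C/D rows were snR41 and snR57. TGATGA lay in the first 25 bases of 36 box C/D rows (76.6%) and of 1 box H/ACA row (3.45%). ACA lay in the last 8 bases of 17 box H/ACA rows (58.6%) and of 3 box C/D rows (6.38%). The annotation gives 55 ribose methylation sites to 43 rows, those of snR190, snR55 and snR70 as predicted only. The base at the site was the annotated one in the reference rRNA for 53, all but those 2 sites of snR24. A complementary run of at least 9 bases around the site was found for 44 sites, with a median of 11 bases and a longest run of 16. At 29 of these sites, in 28 members, the paired base stood exactly 5 bases before a CTGA, the spacing known for box D guides. No such run was found for the sites at positions 2791 and 2793 of the large subunit rRNA that are annotated to snR48, which says only that these letters do not pair in one unbroken run.

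Reads counted in genes were 11935735, 11165090 and 8967232 in R256C replicates 1, 2 and 3, and 12476645, 16905818 and 10750023 in WT replicates 1, 2 and 3. WT replicate 2 stood apart from the other WT libraries, with a scaling factor of 0.90 where the other 5 libraries lay between 0.995 and 1.04, so results that move without it are given both ways. Levels are CPM, read counts scaled to the plain total of gene reads of a library. Fold changes are R256C over WT from edgeR's quasi-likelihood test, which scales libraries by trimmed means (TMM) and adjusts p over all 6337 rows tested (Benjamini-Hochberg), and a row was called at an adjusted p under 0.05. The median log2 fold change of all rows was -0.012 on this scale and 0.087 on plain totals, so ratios of CPM run slightly above the fitted fold changes.

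Summed over the 76 rows, snoRNAs were at 2545, 2412 and 2445 CPM in R256C libraries, against 1998, 1941 and 1944 CPM in WT libraries. All 3 R256C libraries lay above all 3 WT libraries, and the mean was 2467 ± 69.4 CPM in R256C and 1961 ± 32.4 CPM in WT (SD, n = 3 each), a ratio of 1.26. The U3 rows made up 46.5% of the difference of 507 CPM. Together snR17a and snR17b were at 529, 538 and 569.7 CPM in R256C libraries, against 332, 302 and 295 CPM in WT libraries, a ratio of 1.76 with no overlap between the strains. The other 74 rows together had a ratio of 1.16, with means of 1922 ± 81.7 CPM in R256C and 1651 ± 13.9 CPM in WT (SD, n = 3 each), again without overlap. On TMM-scaled library sizes the difference summed over all 76 rows was 355 CPM. On those sizes WT replicate 2 lay within the R256C range for the other 74 rows, so there the strains overlapped.

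The sums were also taken by class. Box H/ACA rows summed to 1449.5, 1339.7 and 1305 CPM in R256C libraries, against 1106, 1130.3 and 1111 CPM in WT libraries, and the R256C libraries were all above the WT libraries. Box C/D rows without U3 summed to 567, 534 and 571 CPM in R256C libraries, against 559.7, 508 and 537 CPM in WT libraries, and there the strains overlapped. With U3 included, their mean sums were 1103 CPM in R256C and 845 CPM in WT, without overlap. No row was left out of the box H/ACA sum, which holds snR30, snR86 and snR37. These averaged 199, 186 and 116 CPM in R256C and 124, 124 and 74.3 CPM in WT. Of the 29 box H/ACA rows 13 had a positive and 16 a negative log2 fold change, so the sum does not show a rise of the class. Single genes summed to 2079 ± 60.96 CPM in R256C and 1566 ± 18.9 CPM in WT (SD, n = 3 each), with no overlap. Polycistronic rows summed to 134, 134 and 144 CPM in R256C libraries, against 93.4, 112 and 95.6 CPM in WT libraries, with every R256C library above every WT library. Intronic rows were the only class of gene organisation whose mean was lower in R256C, at 263, 243 and 249 CPM in R256C libraries, against 322, 259 and 303 CPM in WT libraries, and R256C replicate 1 lay above WT replicate 2.

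**Figure D1:**
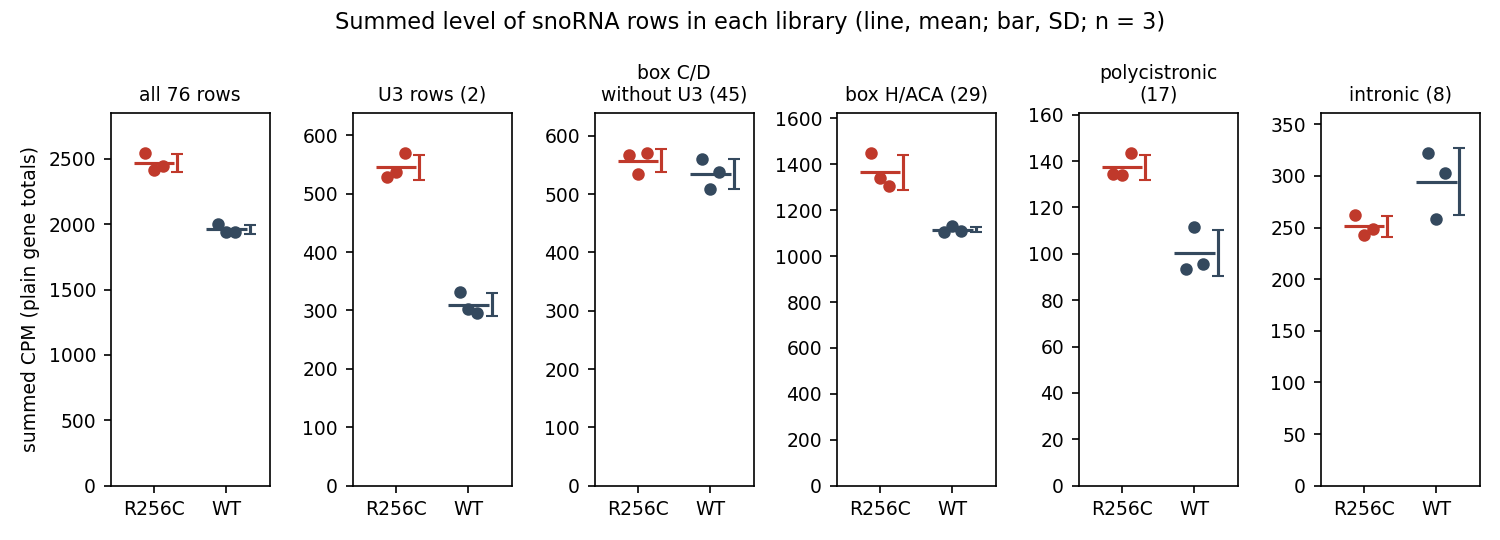
Summed CPM (vertical axis, from 0, a separate scale in each panel) of all snoRNA rows and of 5 subsets in the 3 R256C libraries (left in each panel) and the 3 WT libraries (right). Points are libraries, lines are means and bars are SD. The strains separate for all 76 rows, the U3 rows, box H/ACA and polycistronic rows, and overlap for box C/D rows without U3 and for intronic rows. The rows of highest level are left out of the box C/D panel but not of the box H/ACA panel.

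A ranking by mean CPM over all 6 libraries, made after the values had been seen, showed where the summed difference lay. That mean takes in the R256C libraries, so a row that rose gains rank and a row that fell loses it. The 10 rows with the highest mean CPM, snR17a, snR17b, snR30, snR86, snR44, snR37, snR4, snR82, snR11 and snR33, summed to 1465, 1450.1 and 1452 CPM in R256C libraries, against 971, 1036 and 953 CPM in WT libraries. These 10 rows held 92.7% of the summed difference, and they made up 59.0% of the snoRNA sum in R256C and 50.3% in WT. Of them 6 rose and none fell, where 42.7% of all rows tested were called, 21.2% as higher and 21.4% as lower in R256C. The ranking bears on these counts: in WT alone snR39, which fell and is not among the 10, averaged 59.6 CPM. There snR11, which rose and is among them, averaged 54.0 CPM. The other 66 rows summed to 1079.8, 962 and 993 CPM in R256C libraries, against 1027, 905 and 990.3 CPM in WT libraries, where the strains overlapped, and among the 63 of these that were tested 11 rose and 11 fell.

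Other RNAs that lack a stable poly(A) tail or that RNA polymerase III makes were measured beside the snoRNAs, and their part in the snoRNA differences was not tested. Transfer RNA rows summed to 708, 1135 and 1377 CPM in R256C libraries, against 555, 195 and 338 CPM in WT libraries, all R256C libraries above all WT libraries. SCR1, the RNA of the signal recognition particle, rose (log2 fold change 0.95, SE 0.23, adjusted p = 0.0119), as did the RNase P RNA RPR1 (0.80, adjusted p = 0.0180), the RNase MRP RNA NME1 (0.46, adjusted p = 0.00714) and the spliceosomal U6 row snR6 (0.64, adjusted p = 0.0237). LSR1, the U2 RNA, had a log2 fold change of 0.37 and did not pass (adjusted p = 0.0553), nor did the U4 row snR14 (0.29, adjusted p = 0.115) or the U1 row snR19 (0.25, adjusted p = 0.0562). Telomerase RNA, TLC1, fell (-0.37, adjusted p = 0.0104). Rows of rRNA held 28 to 62 reads per library and rows of the mitochondrial genome 6.62 to 11.9 CPM, and both overlapped between the strains. How reads placed at several loci were counted was not given, so these few reads are not read as a level of rRNA.

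Of the 76 snoRNA rows, 73 passed the filter on low counts and were tested. In R256C 17 rose and 11 fell, and 45 did not pass, so 38.4% were called, where 42.7% of all rows tested were called. The rows that rose were 23.3% of the 73, beside 21.2% of all rows, and the rows that fell were 15.1%, beside 21.4%. The share of snoRNA rows called was thus near that of the whole table. Their median log2 fold change was 0.036, beside -0.012 for all rows. At least 2-fold changes were called in 6 snoRNA rows, 5 up (6.85%, beside 5.76% of all rows) and 1 down (1.37%, beside 2.84%). The rows left out by the filter, snR53, snR60 and snR73, averaged under 1 CPM and overlapped between the strains. In the annotation snR60 overlaps an exon of YJL047C-A, and reads shared by such a pair may be counted in neither row. Among all 76 rows, 29 had all R256C libraries above all WT libraries and 9 had them all below, while over all rows tested these shares were 34.1% and 18.8%.

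These counts moved with single libraries and with the scaling, as did those of the whole table. Without WT replicate 2, 24 rose and 14 fell, so that 52.1% of tested snoRNA rows and 58.9% of all rows were called. Without WT replicate 3, 6 rose and 4 fell, and these shares were 13.5% and 27.2%. Without R256C replicates 1, 2 and 3 in turn 6, 10 and 9 rose and 8, 4 and 7 fell, and without WT replicate 1 12 rose and 9 fell; of all rows 31.1%, 28.3%, 27.3% and 41.3% were called in these 4 fits. On plain totals 21 rose and 5 fell, so that 80.8% of the calls were rises instead of 60.7%, while over all rows 64.9% of the calls were rises instead of 49.7%. The 10 rows called in the same direction under all 14 alternatives were snR17a, snR17b, snR30, snR48, snR52 and snR67, which rose, and snR189, snR39, snR63 and snR65, which fell.

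**Figure D2:**
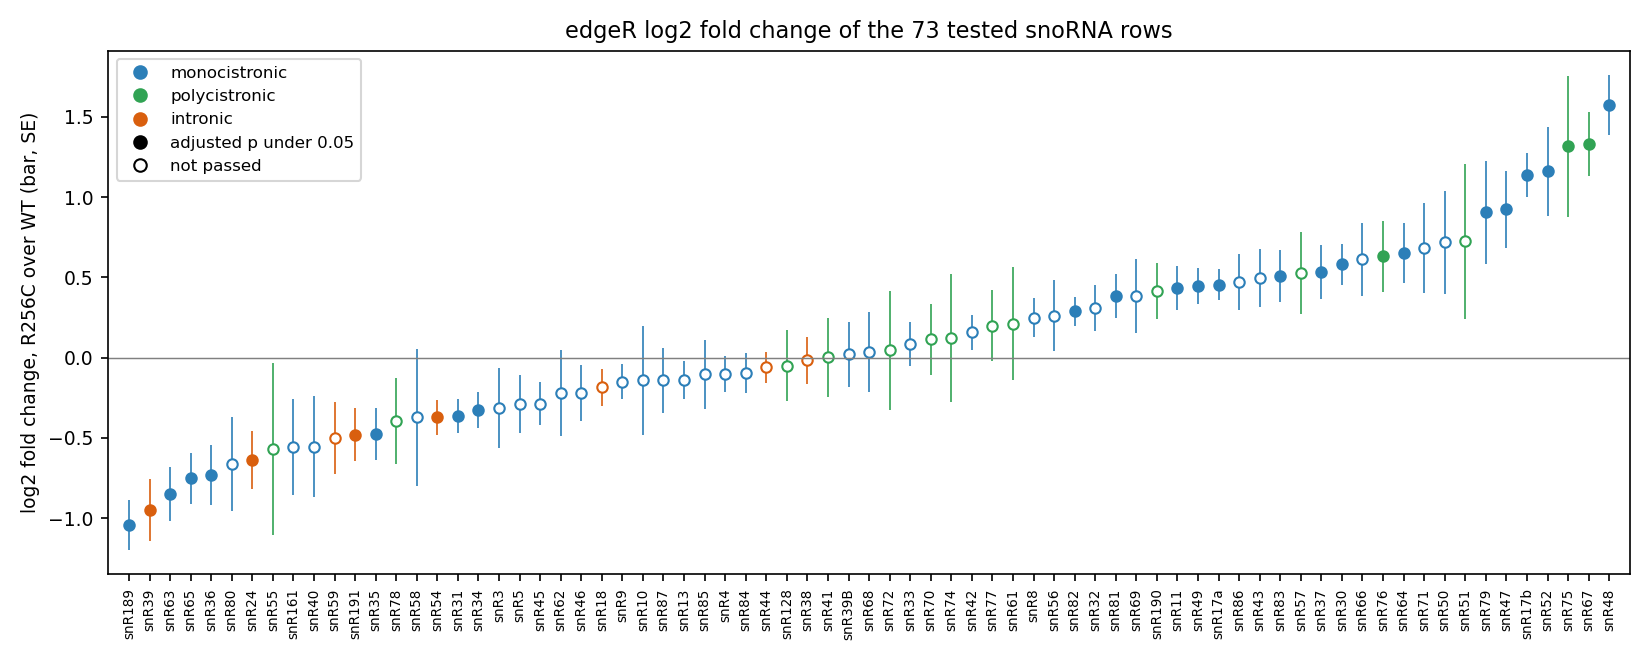
Log2 fold change, R256C over WT (vertical axis, bars are SE), of the 73 tested snoRNA rows in order of fold change. Colours give the gene organisation and filled points passed at an adjusted p under 0.05; values run from -1.04 for snR189 to 1.58 for snR48, and no intronic row lies above 0.

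Rises and falls were called in both box classes. Of 44 tested box C/D rows 10 rose (22.7%, beside 21.2% of all rows) and 5 fell (11.4%, beside 21.4%), with a median log2 fold change of 0.080, and of 29 box H/ACA rows 7 rose (24.1%) and 6 fell (20.7%), with a median of -0.097. Whether these classes differ was not tested. Per kilobase of gene, the median level was 67.3 CPM in box C/D rows and 133 CPM in box H/ACA rows. By organisation the median level per kilobase was 266 CPM for intronic rows, 102 CPM for single genes and 39.1 CPM for polycistronic rows. Their median lengths were 92, 183 and 95 bp in that order. Reads of unspliced host RNA over an intronic row were not told apart from its snoRNA, so these levels do not rank the abundance of the classes.

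Among the snoRNAs that take part in pre-rRNA cleavage, both U3 genes and snR30 rose. The U3 gene snR17a, the row with the highest level, was at 291, 309.5 and 313 CPM in R256C libraries, against 235, 186 and 203 CPM in WT libraries. Every R256C library was above every WT library, and the row rose (log2 fold change 0.46, SE 0.094, adjusted p = 0.00544). It overlaps the annotated gene IRC13, whose row was at 2.66 to 8.47 CPM. Reads that fall in both genes may be counted in neither row, so the level of IRC13 does not show how many were lost. The other U3 gene, snR17b, was at 238, 228 and 257 CPM in R256C libraries, against 96.8, 116 and 91.8 CPM in WT libraries, and the strains were well apart (log2 fold change 1.14, SE 0.14, adjusted p = 0.000426). In means this was 241 ± 14.5 CPM in R256C and 102 ± 12.8 CPM in WT (SD, n = 3 each). Both genes rose, by 1.37-fold for snR17a and 2.20-fold for snR17b.

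The split between the 2 U3 genes was compared within libraries. For each 100 reads of snR17a there were 81.5, 73.7 and 81.9 reads of snR17b in R256C libraries, against 41.1, 62.3 and 45.2 in WT libraries. All R256C libraries were above all WT libraries, and WT replicate 2 was the WT library nearest to R256C. The log2 ratio of snR17b to snR17a differed by 0.70, R256C minus WT, with p = 0.1 by a two-sided exact permutation test over libraries, the smallest p that 3 against 3 allows, and an adjusted p of 0.45 over the 9 ratios tested. Leaving out single libraries gave differences of 0.57 to 0.87. How reads placed at several loci were counted was not given in the sources used here, so the split of reads between these similar copies is uncertain. Reads that snR17a shares with IRC13 may also be missing from it.

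The box H/ACA snoRNA snR30, which acts in early cleavage of the small subunit precursor, was at 204, 199.7 and 193 CPM in R256C libraries, against 110.0, 139 and 122 CPM in WT libraries. No WT library reached the lowest R256C library, and snR30 rose (log2 fold change 0.58, SE 0.13, adjusted p = 0.00750). U14, the box C/D row snR128 that both guides a methylation and is needed for cleavage, was at 37.6, 38.1 and 33.2 CPM in R256C libraries, against 25.2, 44.4 and 34.3 CPM in WT libraries. The WT libraries spanned the R256C ones, and it did not pass (-0.049, adjusted p = 0.870), with a log2 fold change of 0.25 without WT replicate 2. The row of snR10, an H/ACA snoRNA of early cleavage, held only 19 to 34 reads per library, overlaps an exon of YGL088W in the annotation, and did not pass (-0.14, adjusted p = 0.755). Reads shared by such a pair may be counted in neither row.

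The other 2 of the 5 rows of highest level were box H/ACA guides. The longest member, snR86, 1004 bp in the annotation, was at 182, 184 and 191 CPM in R256C libraries, against 105, 154 and 111 CPM in WT libraries. All R256C libraries were above all WT libraries, with WT replicate 2 nearest, and the row narrowly missed the threshold (log2 fold change 0.47, SE 0.18, adjusted p = 0.0580). It passed on plain totals (log2 fold change 0.59, adjusted p = 0.0150) and without WT replicate 2 (0.73, adjusted p = 2.6e-06). The intronic guide snR44 was at 106, 107 and 96.5 CPM in R256C libraries, against 99.9, 104 and 98.05 CPM in WT libraries, the strains overlapped and it did not pass (-0.061, adjusted p = 0.635).

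The largest rise was that of snR48, a box C/D snoRNA annotated to methylation of neighbouring guanines of the large subunit rRNA. It was at 14.1, 11.02 and 11.6 CPM in R256C libraries, against 3.85, 3.43 and 4.28 CPM in WT libraries. The lowest R256C library was well above the highest WT library, and snR48 rose 2.98-fold (log2 fold change 1.58, SE 0.19, adjusted p = 0.000412). The range of its log2 fold change with single libraries left out was 1.46 to 1.65. This was measured on 46 to 168 reads per library.

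The next in size was snR67, annotated to positions 2619 and 2724 of the large subunit rRNA, the second of which its run pairs with. It was at 24.1, 22.03 and 31.002 CPM in R256C libraries, against 8.82, 11.1 and 8.28 CPM in WT libraries, with no overlap, and rose (log2 fold change 1.33, SE 0.20, adjusted p = 0.00116). Guide snR75, annotated to position 2288 of the large subunit rRNA, was at 2.68, 2.15 and 1.34 CPM in R256C libraries, against 0.401, 0.887 and 1.02 CPM in WT libraries and rose (log2 fold change 1.32, SE 0.44, adjusted p = 0.0404). It rested on 5 to 32 reads per library, and its call was lost without R256C replicate 1 (adjusted p = 0.148), R256C replicate 2, WT replicate 1 or WT replicate 3.

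The only box C/D row known to be made by RNA polymerase III in this yeast, snR52, also rose. It carries both complementary runs shown above, for position 2921 of the large and position 420 of the small subunit rRNA. It was at 10.6, 13.8 and 15.3 CPM in R256C libraries, against 7.29, 3.19 and 6.42 CPM in WT libraries, the strains did not overlap (log2 fold change 1.16, SE 0.28, adjusted p = 0.0105), and WT replicate 2 was its lowest library. WT replicate 2 was likewise the lowest library for the tRNA rows, SCR1, RPR1 and snR6, which the same polymerase makes. This was not particular to that polymerase, since WT replicate 2 was also the lowest library for other box C/D rows, among them snR17a (186 CPM) and snR48 (3.43 CPM). Without that library the log2 fold change of snR52 was 0.89 (adjusted p = 0.00175).

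The sixth of the largest rises was snR47, a guide annotated to positions 2220 of the large and 619 of the small subunit rRNA, at 14.5, 11.3 and 13.8 CPM in R256C libraries, against 5.29, 8.22 and 5.58 CPM in WT libraries (log2 fold change 0.92, SE 0.24, adjusted p = 0.0153). Each R256C library was above each WT library. The call was lost without R256C replicate 1, R256C replicate 3 or WT replicate 3 (adjusted p = 0.0559 to 0.0629).

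Of the rows that fell, snR189, a box H/ACA guide of pseudouridylation, fell the most. It was at 10.3, 8.60 and 8.25 CPM in R256C libraries, against 17.2, 18.04 and 17.02 CPM in WT libraries. All R256C libraries lay below all WT libraries, and the fall was 2.06-fold, WT over R256C (log2 fold change -1.04, SE 0.15, adjusted p = 0.00111). Next was snR39, a box C/D guide from an intron of RPL7A, at 34.4, 31.97 and 31.002 CPM in R256C libraries, against 77.6, 38.7 and 62.4 CPM in WT libraries. WT replicate 2 was close to the R256C libraries, and the row fell with it (log2 fold change -0.95, SE 0.19, adjusted p = 0.00511) and without it (-1.15, adjusted p = 4.9e-07).

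The guide snR63, annotated to position 2256 of the large subunit rRNA, was at 15.7, 17.9 and 18.4 CPM in R256C libraries, against 27.9, 33.7 and 25.02 CPM in WT libraries, and snR65, annotated to position 2347, was at 9.47, 10.4 and 7.69 CPM in R256C libraries, against 15.1, 13.9 and 14.5 CPM in WT libraries. For both, every R256C library was below every WT library, and both fell (log2 fold change -0.85, SE 0.17, adjusted p = 0.00443 for snR63; log2 fold change -0.75, SE 0.16, adjusted p = 0.00550 for snR65). The genes of snR65 and snR189, a pair noticed after the values were seen, lie near each other on chromosome III, at 177183 to 177282 and 178610 to 178798, on opposite strands.

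The box H/ACA guide snR36 was at 7.21, 6.63 and 8.92 CPM in R256C libraries, against 10.98, 10.4 and 13.95 CPM in WT libraries, and the intronic guide snR24 was at 7.54, 7.17 and 8.36 CPM in R256C libraries, against 10.50, 9.46 and 13.8 CPM in WT libraries. Neither overlapped between the strains, and both fell (-0.73, adjusted p = 0.0143 for snR36; -0.64, adjusted p = 0.0217 for snR24). Their calls were lost without R256C replicate 1, R256C replicate 2 or WT replicate 3 (adjusted p up to 0.068 for snR36 and 0.099 for snR24), and that of snR24 also on plain totals (adjusted p = 0.0559).

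**Figure D3:**
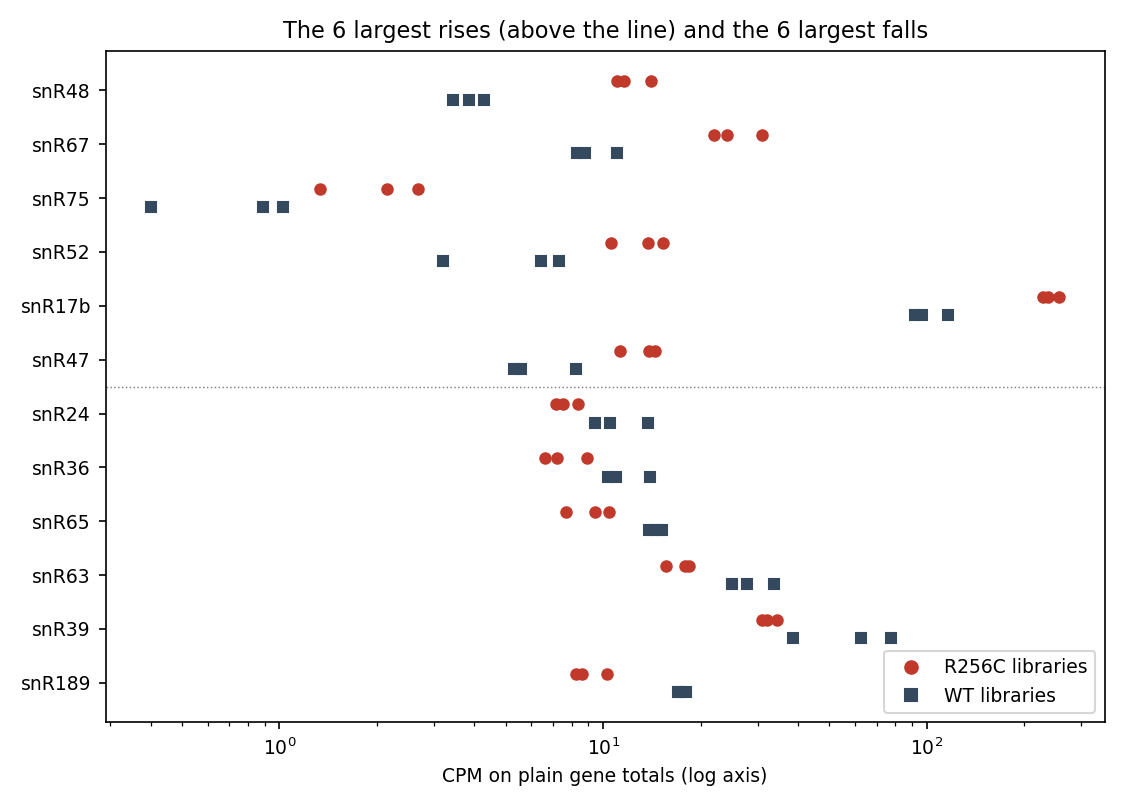
CPM on plain gene totals (horizontal axis, log scale) of the 6 snoRNA rows with the largest called rise, above the dotted line, and the 6 with the largest called fall, below it. Each point is a library, R256C circles drawn above WT squares; in all 12 rows the 3 libraries of one strain lie beyond those of the other.

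The guides of rRNA acetylation did not pass. These box C/D snoRNAs, snR4 and snR45, direct the acetyltransferase Kre33 to the small subunit rRNA. The level of snR4 was 77.7, 71.7 and 77.1 CPM in R256C libraries, against 69.4, 80.03 and 76.7 CPM in WT libraries, and the strains overlapped (-0.10, adjusted p = 0.486). The level of snR45 was 18.4 ± 0.472 CPM in R256C and 20.9 ± 1.49 CPM in WT (SD, n = 3 each), with all R256C libraries below all WT libraries (-0.29, adjusted p = 0.114). KRE33 mRNA itself fell (-0.63, adjusted p = 0.0140).

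The 8 intronic snoRNAs were set beside the genes whose introns they are cut from, since both come from one primary transcript. None of the 8 rose and 4 fell, where 21.2% of all rows rose and 21.4% fell, and their median log2 fold change was -0.43. Of the 8 host genes 5 fell and none rose. With so few rows, nothing particular to the intronic class is read from these counts. The counts of 0, here, among the polycistronic rows that fell and among the 10 rows of highest level that fell, were also 0 at an unadjusted p under 0.05 in edgeR and with DESeq2 and limma-voom. The last of these counts rests on the ranking by the mean over both strains, in which rows that fell lose rank. The intronic rows that fell were snR39, snR24, snR191 and snR54, and the hosts that fell were RPL7A and RPL7B (ribosomal protein L7), ASC1 (a ribosome-bound scaffold protein), NOG2 (a GTPase of large subunit maturation) and IMD4 (an enzyme of guanine nucleotide synthesis). The hosts that did not pass were EFB1 and TEF4, both subunits of an elongation factor, and RPS22B, a small subunit protein, and their snoRNAs snR18, snR38 and snR44 did not pass either.

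The guide snR191, from NOG2, was at 27.6, 17.5 and 23.9 CPM in R256C libraries, against 32.3, 26.1 and 31.9 CPM in WT libraries, with R256C replicate 1 above WT replicate 2, and fell (-0.48, adjusted p = 0.0462). NOG2 was at 273, 214 and 261 CPM in R256C libraries, against 460.5, 400.2 and 507 CPM in WT libraries, without overlap, and fell further (log2 fold change -0.96, SE 0.12, adjusted p = 0.000604). The call of snR191 was lost on plain totals (adjusted p = 0.117) and without R256C replicate 2 or 3 or WT replicate 1 or 3. For snR54, from IMD4, levels were 28.2, 25.7 and 31.7 CPM in R256C libraries, against 36.4, 31.9 and 35.3 CPM in WT libraries, below WT in every R256C library (-0.37, adjusted p = 0.0256). IMD4 also fell (-0.44, adjusted p = 0.0258), and neither call of this pair held on plain totals (adjusted p = 0.0960 for snR54 and 0.0518 for IMD4) or without R256C replicate 1, R256C replicate 2 or WT replicate 3.

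The pair snR39 and snR59 lie in introns of the duplicated genes RPL7A and RPL7B, are both annotated to the adenine at position 807 of the large subunit rRNA, and share a stretch of 51 bp at 86.3% identity. While snR39 fell (-0.95), snR59 was at 4.52, 3.76 and 4.68 CPM in R256C libraries, against 6.09, 6.21 and 4.65 CPM in WT libraries, the strains overlapped at 1 pair of libraries, and it did not pass (-0.50, adjusted p = 0.107). Their hosts both fell, RPL7A at -0.68, adjusted p = 0.00981 and RPL7B at -0.75, adjusted p = 0.00602. The call of RPL7A was lost without R256C replicate 2 or 3. The related row snR39B, outside RPL7A, did not pass (0.021, adjusted p = 0.941).

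The ratio of snoRNA to host within a library does not depend on the scaling between libraries. For snR191 the log2 ratio to NOG2 was 0.46 higher in R256C than in WT, and the strains did not overlap (exact permutation p = 0.1, the smallest possible; adjusted p = 0.45 over the 9 ratios). For the other 7 pairs the strains overlapped, with differences from -0.25 for snR39 to 0.31 for snR24 and adjusted p between 0.45 and 1. With 3 libraries a strain this test cannot pass 0.05.

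The remaining intronic rows overlapped between the strains. The snR18 row was at 28.5, 28.7 and 26.3 CPM in R256C libraries, against 33.9, 24.7 and 30.8 CPM in WT libraries (-0.19, adjusted p = 0.219), and only without WT replicate 2 did it pass, just under the threshold (-0.26). The snR38 row was at 25.4, 20.9 and 26.5 CPM in R256C libraries, against 25.6, 18.1 and 25.7 CPM in WT libraries (-0.017, adjusted p = 0.931). The hosts TEF4 and RPS22B passed as rises without WT replicate 2, at 0.30 (adjusted p = 0.0134) and 0.26 (adjusted p = 0.0216), while their snoRNAs snR38 and snR44 did not pass there.

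**Figure D4:**
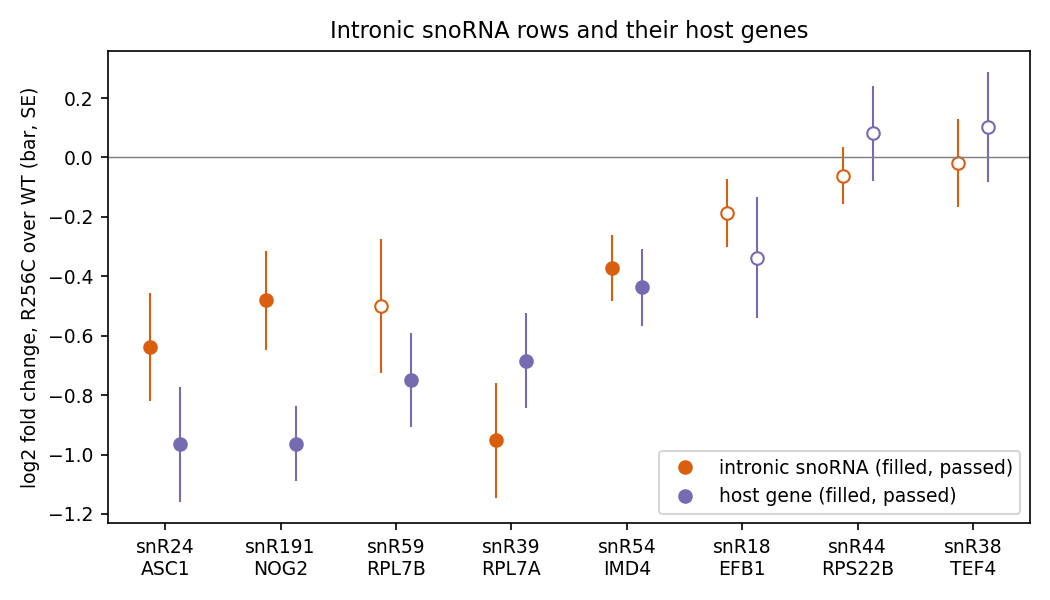
Log2 fold change, R256C over WT (vertical axis, bars are SE), of each intronic snoRNA row (orange, left) and its host gene (purple, right), ordered by the host. Filled points passed at an adjusted p under 0.05; 4 snoRNAs and 5 hosts fell and none rose.

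The polycistronic rows come from 5 transcripts that are cut into single snoRNAs after transcription. Of 15 tested rows 3 rose (snR67, snR75 and snR76), a share near the 21.2% of all rows, and none fell, where 21.4% of all rows did; the median log2 fold change was 0.20. Rows of 1 cluster share a promoter yet had unequal levels: in the cluster of snR67 and snR53, snR67 averaged 25.7 ± 4.69 CPM in R256C and 9.39 ± 1.48 CPM in WT, while snR53 averaged 0.687 ± 0.311 CPM in R256C and 0.595 ± 0.261 CPM in WT (SD, n = 3 each). In the cluster of 7 rows, read 5′ to 3′ as snR78, snR77, snR76, snR75, snR74, snR73 and snR72, snR76 was at 11.6, 9.31 and 12.5 CPM in R256C libraries, against 5.53, 7.87 and 6.42 CPM in WT libraries. The strains did not overlap in snR76, which rose (0.63, adjusted p = 0.0481), although its call was lost without any single library other than WT replicate 2. Its 5′ neighbours snR78 (-0.40, adjusted p = 0.259) and snR77 (0.20, adjusted p = 0.498) did not pass, nor did snR74 (0.12, adjusted p = 0.821) and snR72 (0.045, adjusted p = 0.929) at the 3′ end. The row of snR73 held 0 or 1 read in each library, so no difference was detectable at this depth.

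In the cluster of snR190 and snR128, snR190 is only predicted to guide methylation at position 2395 of the large subunit rRNA. The annotation adds that it was not shown to be active. Its level was 24.2, 26.3 and 31.2 CPM in R256C libraries, against 23.7, 13.9 and 20.4 CPM in WT libraries. The R256C libraries were above the WT libraries, and the row did not pass (0.41, adjusted p = 0.0876). In the cluster of snR41, snR70 and snR51 no row passed, with log2 fold changes of 0.001, 0.11 and 0.72. In the cluster of snR57, snR55 and snR61 none passed either, with 0.53, -0.57 and 0.21, and snR61 passed without WT replicate 2 (0.72, adjusted p = 0.0286).

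**Figure D5:**
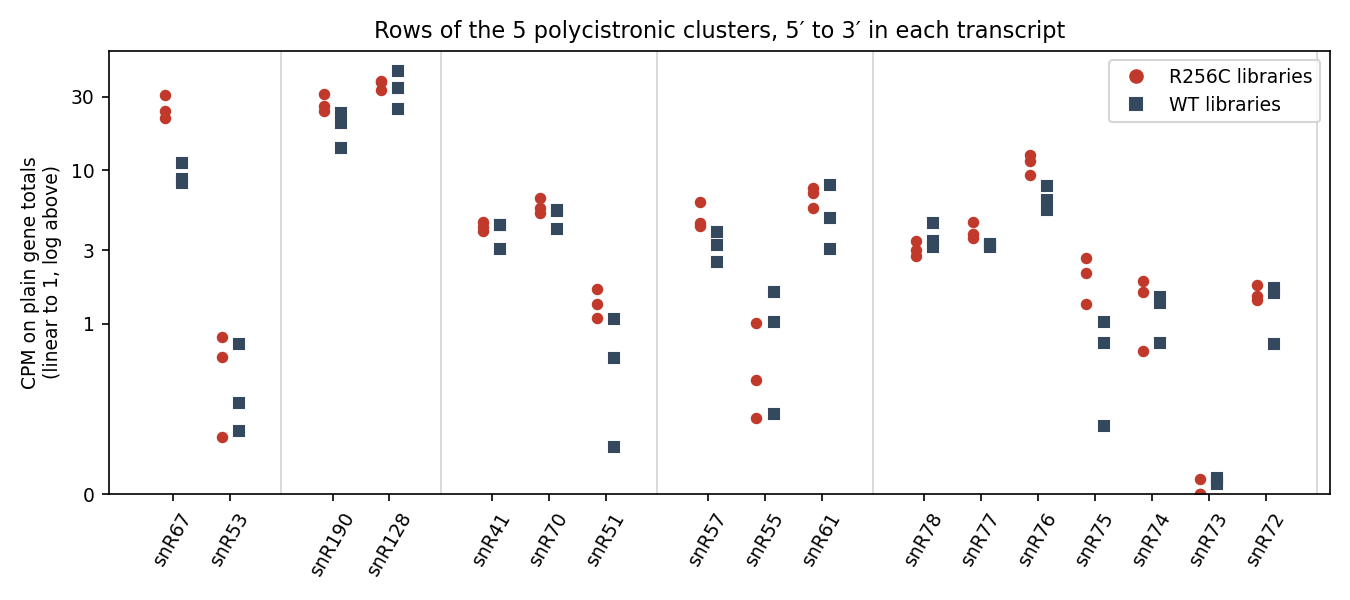
CPM on plain gene totals (vertical axis, linear to 1 and log above) of the 17 rows of the 5 polycistronic clusters, 5′ to 3′ within each transcript, in 3 R256C libraries (circles, left) and 3 WT libraries (squares, right). Within clusters levels differ between rows, as for snR67 and snR53, and the strains separate for snR67, snR190, snR51, snR57, snR77, snR76 and snR75.

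Genes for the snoRNA particles and for snoRNA processing moved in both directions. Of 59 such genes 12 rose and 12 fell, 20.3% each way, beside 21.2% and 21.4% of all rows, and their median log2 fold change was -0.0059. Without WT replicate 2, 22 rose, and without WT replicate 3 or R256C replicate 3, 4 rose.

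Among the box C/D core proteins, SNU13, which binds the kink-turn of the RNA, rose (0.65, adjusted p = 0.0253), and NOP56 fell (-0.36, adjusted p = 0.0499), while NOP1 and NOP58 did not pass. SNU13 was at 748, 661 and 718 CPM in R256C libraries, against 336, 515 and 405 CPM in WT libraries, without overlap. Of the box H/ACA core, GAR1 rose (0.41, adjusted p = 0.0244), and CBF5, NHP2 and NOP10 did not pass. GAR1 was at 466, 464 and 512 CPM in R256C libraries, against 312, 355 and 341 CPM in WT libraries, again with every R256C library higher.

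Of 13 assembly and cap genes 2 rose (15.4%, beside 21.2% of all rows) and 3 fell (23.1%, beside 21.4%). RSA1, a platform protein of box C/D assembly, was at 90.8, 88.5 and 96.4 CPM in R256C libraries, against 42.2, 50.3 and 44.4 CPM in WT libraries and rose (log2 fold change 0.90, SE 0.12, adjusted p = 0.000712). The box H/ACA assembly factors SHQ1 (-0.67, adjusted p = 0.00392) and NAF1 (-0.56, adjusted p = 0.00856) fell, as did the ATPase gene RVB1 (-0.39, adjusted p = 0.0227). NAF1 was at 177, 132 and 167 CPM in R256C libraries, against 230.4, 187 and 242 CPM in WT libraries. SHQ1 averaged 57.8 ± 4.58 CPM in R256C and 85.4 ± 7.90 CPM in WT (SD, n = 3 each). Neither gene overlapped between the strains.

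Of 12 genes of termination and tailing 2 rose (16.7%, beside 21.2% of all rows) and 3 fell (25%, beside 21.4%). TRF5, a poly(A) polymerase of the TRAMP complex that tails nuclear RNA for decay, was at 134, 110.3 and 131 CPM in R256C libraries, against 259, 204 and 286 CPM in WT libraries and fell (log2 fold change -1.08, SE 0.12, adjusted p = 0.000298). The paired zinc-knuckle subunits of TRAMP moved in opposite directions, AIR2 rising (0.61, adjusted p = 0.00169) and AIR1 falling (-0.58, adjusted p = 0.00524). AIR2 was at 75.7, 74.2 and 75.6 CPM in R256C libraries, against 51.3, 44.6 and 42.3 CPM in WT libraries, and AIR1 at 56.7, 47.6 and 48.6 CPM in R256C libraries, against 68.1, 75.4 and 70.1 CPM in WT libraries. No R256C library overlapped WT in either gene. PAP1, the main poly(A) polymerase, rose (0.28, adjusted p = 0.0281), and the other TRAMP polymerase gene PAP2 did not pass. Of the termination complex of Nrd1, Nab3 and Sen1, the helicase gene SEN1 fell (-0.27, adjusted p = 0.0465), with overlap between the strains, and NRD1 and NAB3 did not pass.

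Of 6 genes of cleavage and 5′ trimming 2 fell, where 21.4% of all rows did: POP1, a shared subunit of RNase P and RNase MRP (-0.91, adjusted p = 0.000412), and the cytoplasmic exonuclease gene XRN1 (-0.42, adjusted p = 0.00980). RNT1, DBR1, RAT1 and RAI1 did not pass. Of 17 genes of the nuclear exosome and 3′ trimming 6 rose (35.3%, beside 21.2% of all rows) and 1 fell (5.88%, beside 21.4%). RRP46, a subunit of the exosome ring, was at 149.6, 155 and 168 CPM in R256C libraries, against 73.7, 95.6 and 78.2 CPM in WT libraries and rose (log2 fold change 0.82, SE 0.14, adjusted p = 0.00233). The exosome cofactor MPP6 (0.62, adjusted p = 0.00292) and the exonuclease gene REX1 (0.33, adjusted p = 0.0182) rose, and the ring subunit RRP4 fell (-0.69, adjusted p = 0.00166). The catalytic genes RRP6 and DIS3 did not pass. EMG1, a methyltransferase of small subunit rRNA, fell (-0.68, adjusted p = 0.00240).

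Coding genes that start within 1000 bp after a snoRNA gene on the same strand were also read, since a transcript that runs past a snoRNA can enter them. There were 32 such genes after 37 snoRNA genes, of which 3 rose (9.38%, beside 21.2% of all rows tested) and 10 fell (31.3%, beside 21.4%), with a median log2 fold change of -0.15. On plain totals 7 rose and 6 fell, and without WT replicate 2 these counts were 7 and 16. The list keeps MDM30, although its snoRNA snR44 is intronic and the rest of the host RPS22B lies between them. The genes that rose were YDR042C, 399 bp after snR47, ERG25, a sterol oxidase gene 868 bp after snR48, and UBX6, 493 bp after snR60. YDR042C was at 23.8, 25.6 and 24.5 CPM in R256C libraries, against 9.54, 8.87 and 10.1 CPM in WT libraries, with no overlap (log2 fold change 1.28, SE 0.12, adjusted p = 0.000134). ERG25 was at 567, 519.6 and 593 CPM in R256C libraries, against 298, 437 and 326 CPM in WT libraries (0.55, adjusted p = 0.0406), and UBX6 at 80.2, 83.1 and 71.3 CPM in R256C libraries, against 42.00, 37.3 and 46.8 CPM in WT libraries (0.80, adjusted p = 0.000555). NVJ2 and BUD22 follow clusters of several snoRNAs and did not pass. Of the other 30 genes, which follow a single snoRNA, 8 follow one that rose, and of these 2 rose, 1 fell and 5 did not pass. A further 19 follow a snoRNA that did not pass, and of these 9 fell and 10 did not pass in edgeR; at an unadjusted p under 0.05 edgeR had 3 of the 19 higher in R256C, and DESeq2 and limma-voom each called 1 as higher.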

How the data were processed

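The authors deposited whole-number read counts per gene, not normalized, for 6 libraries, 3 of R256C and 3 of WT. Per the submitters' processing notes, TopHat, HTSeq and DESeq were used with genome build R64; versions, strand setting and the handling of multiply placed reads: not given in the sources used here. The table has 7131 rows, of which 5 are summary rows of the counter and were used neither in library sizes nor in tests, and 0 columns were left unused. A summary row of alignments that were not unique held 13524317 to 22017174 per library, more than the gene reads of the same library.

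The members and lists were chosen with earlier results of these data known. Deposited counts were fitted with edgeR 4.0.16 in R 4.3.3 (filterByExpr, TMM, glmQLFit and glmQLFTest, genotype as the only term), with Benjamini-Hochberg adjustment over 6337 rows. SE was taken from the log2 fold change and the F statistic (their quotient, with F under the root). The scripts were tested on simulated data, where DESeq2 made a larger share of false calls than edgeR or limma-voom and exceeded the limit set for false calls; it was kept as an alternative only. CPM are scaled to plain gene totals. Ratios of counts used a prior count of 0.5 and two-sided exact permutation tests, adjusted over 9 ratios. Summed CPM were given no test. No library was a repeat of another, since the lowest chi-square per degree of freedom between replicates was 7.15. P-values of the fits set the difference between the strains against the spread between these libraries. Whether these libraries stand for independent isolates was not given.

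Named were the 5 rows of highest mean CPM, the 6 largest rises and the 6 largest falls among called rows with a mean of at least 1 CPM, the cleavage snoRNAs, all intronic and polycistronic rows, snR52, snR4 and snR45, and up to 4 called genes with the smallest p per pathway list; any others were named after their values were seen. Gene organisation, host genes and pathway lists were written from general knowledge, and coordinates and sequences come from the R64 RefSeq reference. Alternatives were DESeq2 1.42.0, limma-voom (limma 3.58.1), DESeq2 size factors, plain totals, TMM factors of coding rows, no filter, at least 10 CPM in 3 libraries, a block for the replicate number, and each library omitted in turn.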

Additional observations from a re-analysis of the deposited data

How the results depend on the processing

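The counts of snoRNA rows that rose ranged from 6 to 24 and of those that fell from 4 to 14 when single libraries were left out. Among the other settings 14 to 21 rose. The fallen rows numbered 8 with TMM factors of coding rows and 5 on plain totals, both with 73 rows tested. They numbered 7 with a filter at 10 CPM in 3 libraries, which tests fewer rows. Pathway genes that rose ranged from 4 to 22 and those that fell from 8 to 14 without single libraries. Downstream neighbours that rose ranged from 2 to 7 and those that fell from 6 to 16 without single libraries, and on plain totals 7 rose and 6 fell. The difference in summed CPM was 355 on TMM-scaled sizes and 410.1 without snR17a, and 468 to 534 without single libraries. The causes of these shifts were not tested.

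The sign turned only in results that had not passed. On plain totals the log2 fold change was 0.040 for snR44, 0.066 for snR128, 0.072 for snR38 and 0.00070 for snR4. For snR38 it was 0.0025 with TMM factors of coding rows and 0.0067 with the 10 CPM filter, and for snR41 -0.0044 with DESeq2 size factors, -0.0038 with DESeq2 and -0.0040 with no filter. Leaving out single libraries gave ranges of -0.10 to 0.016 for snR44, -0.26 to 0.25 for snR128, -0.37 to 0.062 for snR10, -0.13 to 0.089 for snR38, -0.16 to 0.14 for snR41, -0.068 to 0.72 for snR61, -0.033 to 0.25 for snR70, -0.22 to 0.32 for snR72, -0.100 to 0.41 for snR74, -0.19 to 3.1e-05 for snR4, -0.014 to 0.30 for TEF4 and -0.032 to 0.26 for RPS22B. Ranges of the log2 ratio, R256C minus WT, were -0.20 to 0.32 for snR18 to EFB1, -0.43 to 0.028 for snR38 to TEF4 and -0.62 to 0.043 for snR39 to RPL7A.

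The replicate numbers did not pair the libraries: same-numbered libraries had correlations of deviations of -0.111, -0.0678 and -0.0691, and none correlated best with its own number. With the replicate number as a block 15 snoRNA rows rose and 11 fell (25 of the 28 calls in the same direction; snR75 at 1.32 had an adjusted p of 0.0897), 12 pathway genes rose and 11 fell, and 4 downstream neighbours rose and 10 fell.

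Of 37 rows that averaged under 10 CPM, 34 were tested, of which 6 rose (17.6%, beside 21.2% of all rows) and 2 fell (5.88%, beside 21.4%). Whether depth bears on these calls was not tested, and at 0 or 1 read per library no difference in snR73 was detectable.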

Other observations

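Among the tested snoRNA rows, in CPM on plain totals, all 17 that rose had every R256C library above every WT library. Of the 11 that fell, 8 had every R256C library below every WT library and 3 overlapped. These 3 were snR191, snR34 and snR35. Their calls held in 7, 6 and 7 of the 14 alternatives, and all were lost on plain totals (edgeR adjusted p = 0.117, 0.186 and 0.122). The annotation gives snR35 only as predicted to guide the pseudouridine that EMG1 goes on to methylate. A further 12 rows that did not pass had every R256C library above WT, and 1, snR45, had every R256C library below. Over all rows tested, called or not, 34.1% had every R256C library above WT on plain totals and 18.8% had every one below. The guide snR66 was one of the 12, at 10.7, 10.3 and 13.9 CPM in R256C libraries, against 5.37, 7.69 and 8.09 CPM in WT libraries. Its log2 fold change was 0.61 (edgeR adjusted p = 0.0570), and it was 0.75 without WT replicate 2 (adjusted p = 0.0113).

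The level of the box H/ACA guide snR35 was 43.7, 33.7 and 28.1 CPM in R256C libraries, against 52.2, 38.4 and 47.5 CPM in WT libraries. That of the box H/ACA guide snR5 was 42.2, 30.8 and 25.4 CPM in R256C libraries, against 43.8, 33.6 and 36.0 CPM in WT libraries. The strains overlapped in both rows. These rows were picked after their values were seen.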
